A study of Mus musculus with 2 samples.

Results

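The cytosolic ribosomal protein genes were described in mouse embryonic stem (ES) cells with and without a histone H3.3 G34R mutation. They were taken by name, as every gene whose symbol starts with Rpl or Rps and a digit, plus Rplp0, Rplp1, Rplp2 and Rpsa. S6 kinase genes, rows named as numbered pseudogenes, Rpl10l and genes on chromosome 8 were left out. This gave 83 genes of the 26127 in the expression table. Of these, 74 encode proteins of the ribosome itself (43 of the large and 31 of the small subunit, stalk proteins included) and 7 are paralogues such as Rpl39l. The other 2 are Rps19bp1, a binding protein of Rps19, and Rpl32-ps, which is a pseudogene by its name.

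The cytosolic ribosome translates nuclear-encoded mRNAs, with the small subunit decoding the mRNA and the large subunit forming the peptide bond. Most of its proteins are needed in equal amounts, and their mRNAs are among the most abundant in dividing cells. Most of these mRNAs begin with a run of pyrimidines, the terminal oligopyrimidine (TOP) tract, through which mTOR signalling controls their translation. The genes have also left many processed copies in mammalian genomes, made by reverse transcription of the abundant mRNAs.

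WT cells (H3f3a+/+; H3f3b+/+) were unmodified ES cells. G34R cells (H3f3a+/G34R; H3f3b+/+) were a targeted derivative in which 1 H3f3a allele expresses H3.3 G34R from the endogenous H3f3a promoter, after Cre had removed a WT minigene and the selection cassette. Both lines were of strain 129S1/SvImJ, at passages under 20, and grew with serum and LIF. RNA was sequenced as 1 library per line, so there is no replicate error, no test was possible, and genotype, clone and culture cannot be told apart.

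The depth estimated from the values was 88.35 M reads for WT and 72.8 M reads for G34R cells. Levels are RPKM (reads per kb of transcript, scaled to the size of the library), and differences are log2 (G34R/WT RPKM). H3f3a had 8.17 RPKM in WT and 4.89 RPKM in G34R cells, and H3f3b had 68.84 and 58.76 RPKM. Of the ES cell markers, Dppa5a had 707.95 and 647.81 RPKM, Pou5f1 had 194.34 and 189.46 RPKM, Nanog had 127.07 and 52.24 RPKM, and Zfp42 had 180.30 and 16.40 RPKM. Nanog and Zfp42 were the 2 of 10 ES cell markers more than 2-fold lower. Klf4 (25.14 and 43.71 RPKM) and Utf1 (61.89 and 108.56 RPKM), added here after their values were seen, were more than 1.5-fold higher. The part of these markers in the values below was not tested. Of 6 fibroblast and differentiated cell markers, only Thy1 reached 1 RPKM, at 1.18 RPKM in WT and 0.71 RPKM in G34R cells, and Acta2 had 0.74 and 0.03 RPKM. Summed over each list, the ES cell markers had 1529 and 1271 RPKM and the fibroblast and differentiated cell markers 2.51 and 1.52 RPKM.

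The starts of 6 genes are shown to make pyrimidine runs near the annotated start visible, from the RefSeq promoters on GRCm38.p6. Each runs over 30 bases from 10 bases before the annotated start, 5′ to 3′, and capitals mark the longest pyrimidine run. Rpl27a, Rpl15, Rpl35 and Rps10 carry long runs across the start, Rpl34 is a gene that was higher in G34R cells, and Rpl39l is the gene with the lowest ratio. The run of Rpl39l ends before the annotated start, and most of that of Rpl34 lies before it, so neither is shown to be a TOP tract. Another annotated start of Rpl34, not printed, has a run of 6 bases.
Rpl27a (chr7:109519185-109519214, +): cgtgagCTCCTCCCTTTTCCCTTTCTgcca
Rpl15 (chr14:18270967-18270996, -): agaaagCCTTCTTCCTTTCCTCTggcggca
Rpl35 (chr2:39005112-39005141, -): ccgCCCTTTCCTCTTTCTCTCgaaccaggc
Rps10 (chr17:27635225-27635254, -): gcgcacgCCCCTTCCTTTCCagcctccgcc
Rpl34 (chr3:130730318-130730347, -): CTTTTCCTCTTCCggggacggtgctcagag
Rpl39l (chr16:10170218-10170247, +): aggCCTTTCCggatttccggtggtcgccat

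A promoter was matched for 62 genes. CTTTC or CTTCC, read on the sense strand within 25 bases of the start, was in 31 of these 62 (50.0%), against 18.9% of all 27025 genes in the promoter table. Counted with or without the other motif, CTTTC was in 18 (29.0% against 7.87%) and CTTCC in 18 (29.0% against 12.4%). CCGGAAG, a core of the ETS family site, was on either strand between 250 bases before and 50 bases after the start in 25 of 62 (40.3% against 9.93% of all genes), and can overlap CTTCC on the other strand. TATAAA between 35 and 15 bases before the start was in 1 of 62 (1.61% against 2.22%). The 31 genes with CTTTC or CTTCC had a median log2 ratio of -0.28, and the 30 tested genes without had -0.30, so the ratio was much the same on both sides of this division.

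Ribosomal protein mRNAs were abundant in both lines. The median level was 128.04 RPKM in WT and 113.16 RPKM in G34R cells, 51 and 46 genes lay above 100 RPKM, and 3 of the 10 highest rows of the whole table were of this family in each library. The order of levels was close to the same in both libraries (Spearman's rho 0.96 across the 83 genes, as a description). Rpl8, a large-subunit protein next to the peptidyl transferase centre, was highest in WT cells with 1010.60 RPKM and had 869.58 RPKM in G34R cells. Rplp1, an acidic stalk protein that helps recruit elongation factors, had 925.59 and 897.49 RPKM and was highest in G34R cells. Rpl4, which lines the exit tunnel, had 878.24 and 756.53 RPKM. These 3 stood apart from the rest of the large subunit, where Rpl32 (503.99 and 395.95 RPKM) and Rpl14 (417.31 and 339.56 RPKM) came next in WT cells.

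The small-subunit genes had no such extreme. Rps15 led with 451.72 RPKM in WT and 420.47 RPKM in G34R cells. Rps26 (422.87 and 385.22 RPKM) and Rps12 (375.58 and 291.21 RPKM) were also among the highest in WT cells. All 3 were lower in the G34R library, with log2 ratios between -0.37 and -0.10. At the other end, 12 of the 83 genes were under 50 RPKM in both libraries. RPKM is divided by the length of the merged transcript, so a long model gives a low level. In WT cells Rps15a, with 6262 merged bases, had 17.89 RPKM from about 9898 reads. Rps27, with 345 bases, had 326.29 RPKM from about 9946 reads. The order of levels thus depends also on the models. Rpl3l, the muscle paralogue of Rpl3, had 0.38 and 0.27 RPKM (about 54 and 31 reads) and was left out of the counts below, which need 1 RPKM in 1 or both libraries.

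**Figure D1:**
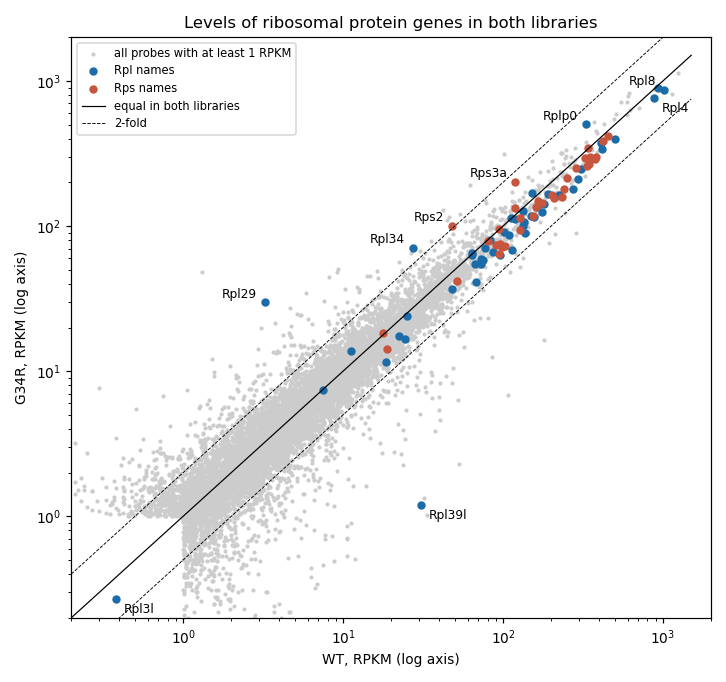
Level of each ribosomal protein gene in WT (horizontal) and G34R cells (vertical), in RPKM on log axes, 1 library each, with all rows of at least 1 RPKM in grey. Most of the coloured points lie in a narrow band just below the line of equality, with Rpl29, Rpl34 and Rps2 above the upper 2-fold line and Rpl39l far below the lower one.

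The family as a group was slightly lower in G34R cells. Of the 82 genes with at least 1 RPKM, 69 had a log2 ratio below 0 (84.1%), where 54.8% of all 10728 rows tested did. The median was -0.30 (quartiles -0.40 and -0.09), against -0.05 (-0.35 and 0.25) over all rows. The spread was narrow, with an interquartile range of 0.31 against 0.61 over all rows. Among rows of at least 50 RPKM, where 58.4% were below 0, the 71 family members had a median of -0.30 and the other 521 rows -0.05.

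Few members moved far. More than 2-fold up were 3 of 82, where 4.09% of all rows were called, and more than 2-fold down was 1, where 6.42% were called. At 1.5-fold, 5 were up (background 11.3%) and 7 down (background 14.1%). As shares of the 82 genes, all 4 counts lie under the background, so large changes were not more frequent in this family than over all rows. Between these, 39 had log2 ratios from -0.25 down to 1.5-fold, 23 from -0.25 to 0, and 8 from 0 up to 1.5-fold. No member of the small subunit proper was past 1.5-fold down, while 6 of the 43 of the large subunit were. The latter share is close to the background of 14.1%, and the difference between the subunits was not tested. The medians of the subunits were nearly the same, at -0.30 for the large (37 of 43 below 0) and -0.28 for the small subunit (25 of 31 below 0).

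**Figure D2:**
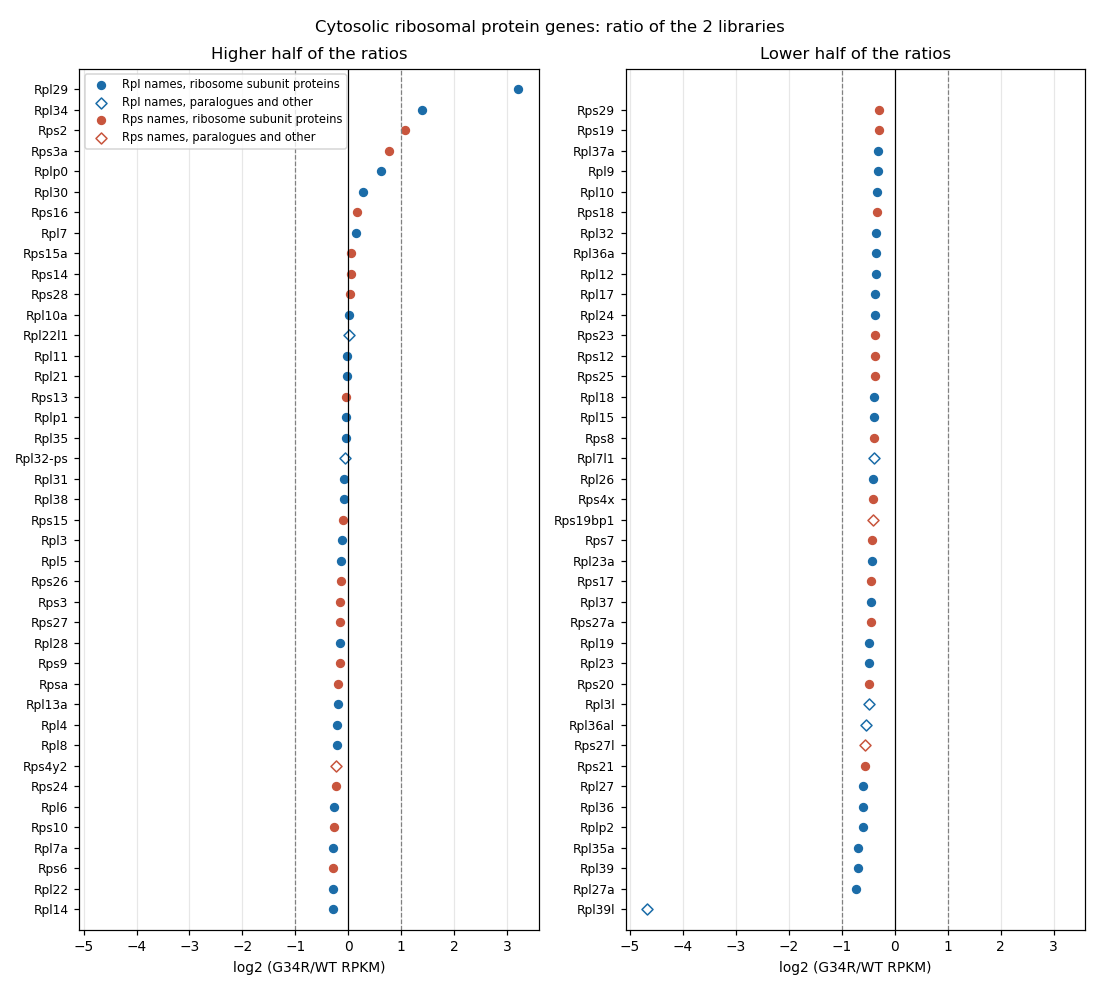
Log2 (G34R/WT RPKM) of 81 of the 83 genes in falling order (Rpl3l, under 1 RPKM, is included, and 2 genes are not drawn), with the higher ratios on the left and the lower on the right, filled circles for ribosome proteins and open diamonds for paralogues and other names. Dashed lines mark 2-fold. The points run in a smooth slope from about 0.28 to -0.73, with 5 genes above it and Rpl39l below it.

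Summed over the family, the level fell from 15565 to 13497 RPKM, so the G34R sum was 86.7% of the WT sum. Its part of the RPKM of all rows was 9.95% in WT and 8.91% in G34R cells. The large-subunit proteins summed to 8682 and 7568 RPKM and the small-subunit proteins to 6417 and 5571 RPKM, in nearly the same proportion. RPKM is a share of each library, and a bulk sample cannot tell less of these mRNAs per cell from more of other RNA.

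Members with further tasks outside translation, or with special handling, mostly lay within the same band. Rps6, the small-subunit protein phosphorylated by S6 kinase, had 176.05 RPKM in WT and 144.02 RPKM in G34R cells (-0.29). Rpsa, also known as a laminin receptor, had 286.55 and 251.46 RPKM (-0.19). Rps27a, made as a fusion with ubiquitin, had 99.03 and 72.22 RPKM (-0.46). The stalk proteins did not move together, with Rplp1 at -0.04, Rplp2 at -0.61 (136.23 and 89.55 RPKM) and Rplp0, which anchors the others to the large subunit, at 0.61. The 4 X-linked members Rpl10, Rpl36a, Rpl39 and Rps4x all had ratios below 0, between -0.70 and -0.33, and the 363 rows of the X chromosome had a median of -0.21.

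The lowest ratio was that of Rpl39l, a paralogue of the exit tunnel protein Rpl39 that is best known from the testis. It had 30.90 RPKM in WT and 1.20 RPKM in G34R cells, about 2269 and 73 reads. The level in G34R cells was 25.8-fold lower (log2 ratio -4.69, 95% counting interval -5.02 to -4.35). Such intervals cover counting error only and not the difference between cultures. Rpl39l lies on chromosome 16 of mm9 (chr16:10170319-10175004, plus strand), and none of its 50-base stretches occurs elsewhere in the genome. Its parent Rpl39 had 67.37 and 41.47 RPKM (-0.70), so the parent was the higher of the pair in both libraries. Rpl10l, the autosomal and intronless relative of Rpl10 that the rule leaves out, had 23.86 and 3.96 RPKM (-2.59).

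After Rpl39l the ratios came back to a narrow range. The next lowest among genes of at least 10 RPKM were Rpl27a (113.17 and 68.37 RPKM, -0.73), Rpl39, Rpl35a (18.53 and 11.51 RPKM, -0.69), Rplp2 and Rpl36 (273.72 and 180.42 RPKM, -0.60). All are proteins of the large subunit. With Rpl27 (95.45 and 63.07 RPKM, -0.60) these were the 6 genes of the large subunit past 1.5-fold, and none of them passed 2-fold. Some lay close to the cut. With G34R scaled to the WT sum, Rplp2 and Rpl36 were both at -0.56, short of 1.5-fold.

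The other paralogues were less different from their parents. Rps27l, a p53 target, had 94.11 and 63.77 RPKM (-0.56) and Rps27 had 326.29 and 294.15 RPKM (-0.15). Rpl22l1 had 63.76 and 64.71 RPKM (0.02) and Rpl22 had 67.18 and 54.68 RPKM (-0.30). Rpl36al had 24.49 and 16.71 RPKM (-0.55) and Rpl36a had 74.65 and 58.53 RPKM (-0.35). In these pairs the parent was higher in both libraries, except that Rpl22l1 passed Rpl22 in G34R cells.

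Rpl7l1, whose protein acts in ribosome assembly, had 48.25 and 36.64 RPKM (-0.40), and Rpl7 had 151.73 and 168.74 RPKM (0.15). Rpl3 had 408.56 and 374.11 RPKM (-0.13), far above Rpl3l. Rps4x had 240.29 and 181.08 RPKM (-0.41), and its autosomal relative Rps4y2 had 159.94 and 135.99 RPKM (-0.23). Of the 2 remaining names, Rps19bp1 had 18.77 and 14.13 RPKM (-0.41) and Rpl32-ps had 25.27 and 24.15 RPKM (-0.07).

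At the upper end, 5 genes were more than 1.5-fold higher in G34R cells. Rpl29, a large-subunit protein, had the highest ratio with 3.25 RPKM in WT and 29.92 RPKM in G34R cells, about 229 and 1734 reads, which is 9.21-fold (log2 ratio 3.20, standard error from counting 0.10). Rpl34, also of the large subunit, had 27.20 and 71.15 RPKM (2.62-fold, 1.39). Rps2, a small-subunit protein at the mRNA entry channel, had 48.11 and 100.50 RPKM (2.09-fold, 1.06). It was the member just past 2-fold.

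Rps3a, a small-subunit protein, had 118.65 and 201.11 RPKM (0.76) and was the first member short of 2-fold. Rplp0 had 329.79 and 502.88 RPKM (0.61) and moved from rank 15 to rank 4 of the family. Below these 5 the ratios dropped to 0.28 for Rpl30 (11.26 and 13.69 RPKM), 0.17 for Rps16 (118.37 and 133.40 RPKM) and 0.15 for Rpl7.

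Whether such a row holds reads of 1 gene was examined from the genome sequence. The reads were 50 bases long, and the authors kept 1 primary alignment per read, so a read that matches a gene and its processed copy equally well can be counted in either row. Over the 83 genes, a median of 51.0% of the 50-base windows of the mRNA occurred exactly at another place in mm9. In 45 genes 50% or more were shared, in 17 under 20%, and in 5, among them Rpl39l, Rpl3l, Rps19bp1 and Rpl24, none. These shares hold for the mRNA model that was used, and some genes with low shares had long models. Rpl24 was scanned over 4999 bases, Rps15a over 5130 and Rps20 over 3706, against 345 for Rps27. Whether such long models are the mRNAs present in these cells was not tested. The ratio did not follow this share over all members (Spearman's rho 0.06 across 82 genes, as a description).

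All 5 genes above 1.5-fold had shared sequence, from 44.7% of windows in Rpl34 to 86.0% in Rpl29, where the median of the family was 51.0%. Rpl29 windows recurred at 98 places of 10 kb, and Rps2 windows at 83. High numbers were not particular to them, as those of Rpl7a (-0.28) recurred at 133. Of the 16 tested genes with under 20% shared, none was past 1.5-fold up, 1 (Rpl39l) was past it down, 15 were below 0 and the median was -0.27. Past 1.5-fold up were 1 of 21 genes with 20 to 50% shared, 4 of 45 with 50% or more, and 5 of all 82. The difference between these groups was not tested. Of the 24 tested genes with no window in any other row of the table, 23 were below 0 and the median was -0.30. The median of the genes without a window in another row was thus the same as that of the whole family.

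**Figure D3:**
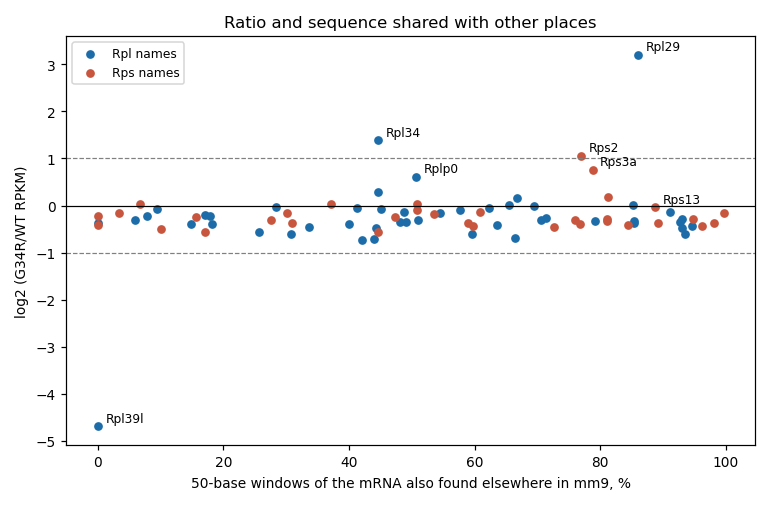
Log2 (G34R/WT RPKM) of 82 genes against the percentage of their 50-base windows that also occur elsewhere in mm9. The level of the cloud is the same from left to right, while the 5 genes above 0.5 all lie at 44.7% or more and Rpl39l lies at 0.

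Rows holding 10% or more of a member's windows, called copy rows here, numbered 118, of which 85 had at least 1 RPKM. Of the 118, 86 carry Gm names given to predicted genes and 31 are named as pseudogenes. Orc5, which holds 57.7% of the windows of Rpl22l1, has neither kind of name. Copy rows summed to 5536 RPKM in WT and 4115 RPKM in G34R cells, and with the members the sums were 21101 and 17612 RPKM, so the G34R sum was then 83.5% of the WT sum. The copy rows had a median log2 ratio of -0.38, with 71 of 85 below 0 (83.5%, against 54.8% of all rows). More than 2-fold down were 13 of the 85 (background 6.42%), and 2 were more than 2-fold up (background 4.09%).

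For Rps3a, Rpl34, Rplp0 and Rps13, whose levels are set beside those of a copy below, 60 bases of the coding sequence and of the copy are shown. They are read from mm9 in the direction of the mRNA, 5′ to 3′, and the capital marks the base that differs within the stretch. Where a gene had several copy rows, the one with the lowest ratio is shown, and not the one holding most windows. Each stretch was chosen for the fewest differing bases, leaving out stretches without any, so it is not typical of the whole.
Rps3a (chr3:85945289-85945348, -): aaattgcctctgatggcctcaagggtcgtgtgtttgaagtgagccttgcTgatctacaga
Gm9000 (chr13:109460963-109461022, +): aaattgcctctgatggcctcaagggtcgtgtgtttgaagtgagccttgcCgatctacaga
Rpl34 (chr3:130431992-130432051, -): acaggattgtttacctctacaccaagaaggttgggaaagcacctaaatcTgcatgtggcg
Gm6404 (chr13:116944071-116944130, +): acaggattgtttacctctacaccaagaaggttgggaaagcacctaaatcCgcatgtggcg
Rplp0 (chr5:116010750-116010809, +): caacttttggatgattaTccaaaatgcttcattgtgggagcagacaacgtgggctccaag
Gm8730 (chr8:105389585-105389644, -): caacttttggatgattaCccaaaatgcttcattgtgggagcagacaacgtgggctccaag
Rps13 (chr7:123475894-123475953, -): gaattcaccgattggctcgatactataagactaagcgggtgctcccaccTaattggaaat
Rps13-ps1 (chr8:89571980-89572039, +): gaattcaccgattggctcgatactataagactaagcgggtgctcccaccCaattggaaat

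Over the whole coding sequence, Rps3a and Gm9000 differed at 9 of 792 bases, Rpl34 and Gm6404 at 10 of 351, Rplp0 and Gm8730 at 12 of 951, and Rps13 and Rps13-ps1 at 2 of 453. Of the 50-base windows of each mRNA, Gm9000 held 42.3% of those of Rps3a, Gm6404 held 14.3% of those of Rpl34, Gm8730 held 34.1% of those of Rplp0, and Rps13-ps1 held 67.7% of those of Rps13. A read from such a window has no base that separates the rows. Copy rows not printed held more windows, with 61.7% for Gm10119 (Rps3a), 35.1% for Gm10154 (Rpl34) and 88.4% for Gm10159 (Rps13).

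In 4 of the 5 genes that were higher, the copy rows summed to less in G34R cells, and Rpl29 was the exception. Lower copy rows were common over the whole family, with 71 of 85 below 0 (83.5%), so this was not particular to these genes. For Rps3a, Gm9000 had 285.49 RPKM in WT and 89.67 RPKM in G34R cells, and Gm10119 had 272.40 and 209.11 RPKM. Gene and copies together had 676.54 and 499.89 RPKM (log2 ratio -0.44). For Rpl34, Gm10154 had 75.11 and 36.02 RPKM, and Gm6404 had 85.15 and 12.48 RPKM. Gene and copies together had 187.46 and 119.65 RPKM (-0.65), so here too the sum of RPKM was lower although the gene's own row was higher. RPKM is per length, so a read weighs more in a short copy row than in a longer gene row. These sums and those below thus depend on the row in which a read was counted, and pooled reads were not compared.

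For Rplp0, Gm8730 had 210.84 RPKM in WT and 88.56 RPKM in G34R cells, and the sum was 540.63 and 591.44 RPKM (0.13). The part of this sum in the row of Rplp0 was 61.0% in WT and 85.0% in G34R cells. Whether reads moved between the rows or the copies themselves changed was not tested.

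Rps2 and Rpl29 differed from these in having copy rows with few reads. The 9 copy rows of Rps2 summed to 4.30 RPKM in WT and 2.92 RPKM in G34R cells, and with them the log2 ratio was 0.98. The 6 copy rows of Rpl29 summed to 1.05 and 5.76 RPKM, and with them the ratio was 3.05. Both genes thus kept their higher level in G34R cells when these rows were added, although shared windows outside any row were not counted.

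Copy rows also moved where the member did not. Rps13 had 80.86 RPKM in WT and 78.93 RPKM in G34R cells (-0.03), while Rps13-ps1 had 107.53 and 6.90 RPKM (-3.96) and Gm10159 had 102.05 and 102.45 RPKM. This set of genes was chosen after its values were seen. Of all rows named as numbered pseudogenes of members, 30 had at least 1 RPKM, with a median of -0.36. Of these, 23 were below 0 (76.7%, against 54.8% of all rows). More than 1.5-fold down were 9 (background 14.1%), and none was as far up (background 11.3%). Of the 7 further rows of this kind that had at least 10 RPKM and whose parent genes are given with values above, 3 were level. Rplp2-ps1 had 233.34 and 234.50 RPKM, Rpl36-ps3 had 127.40 and 128.33 RPKM, and Rpsa-ps10 had 169.00 and 170.11 RPKM. The other 4 were lower, with Rpl27-ps1 at 111.63 and 74.51 RPKM, Rps27a-ps2 at 101.14 and 90.49 RPKM, Rps26-ps1 at 101.96 and 79.89 RPKM, and Rps6-ps1 at 10.88 and 5.83 RPKM. The members of the 3 level rows, Rplp2, Rpl36 and Rpsa, had log2 ratios of -0.61, -0.60 and -0.19.

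**Figure D4:**
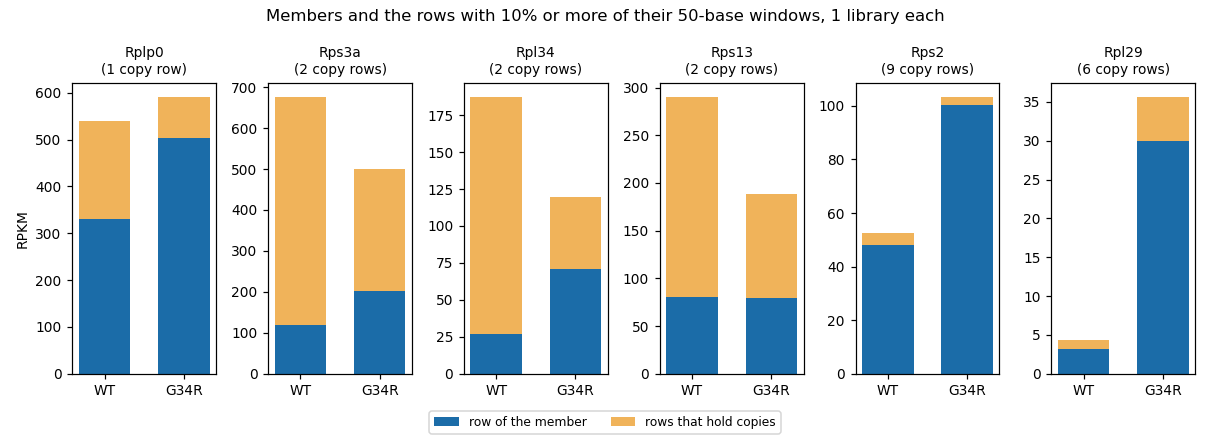
RPKM of 6 members (blue) and of their copy rows (orange, stacked) in WT and G34R cells, 1 library each, with a separate linear axis from 0 for each gene. In Rps3a and Rpl34 the blue part is taller and the whole bar shorter in G34R cells, in Rps13 the blue part is level, and in Rps2 and Rpl29 nearly the whole bar is the gene's own row. Whole bars are sums of RPKM over rows of unlike length and not counts of reads.

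Genes that make ribosomes were next examined as lists. The ribosome assembly factors process rRNA and fit the proteins onto it. Of 105 listed, 101 were in the table, none was past 2-fold, 84 were below 0 and the median was -0.22. Npm1, a nucleolar chaperone, had 344.06 RPKM in WT and 259.34 RPKM in G34R cells, and Nhp2, of the H/ACA snoRNP, had 83.36 and 72.80 RPKM. RNA polymerase I and its factors, which transcribe rRNA, had a median of -0.12 over 21 genes, with 1 (Cd3eap, 9.22 and 4.19 RPKM) past 2-fold down and none up. The highest of these were Polr2f, a subunit common to the polymerases (68.29 and 54.64 RPKM), and Rrn3 (54.77 and 48.22 RPKM).

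Among factors that act on the ribosome, the elongation factor list had a median of -0.11 over 11 genes. This list also holds Eef2k, Pabpc1, Tpt1 and Eef1e1, which are not elongation factors themselves. Eef1a1 had 1235.75 and 1142.60 RPKM and Eef2 had 624.80 and 625.43 RPKM. Both mRNAs are also known to carry TOP tracts. Initiation factors had a median of -0.21 over 35 genes, with Eif4a1 at 157.91 and 121.89 RPKM and Eif4b at 136.71 and 130.23 RPKM. The controllers of TOP mRNA translation and of ribosomal protein genes had a median of 0.00 over 22 genes, 11 of them below 0, with Eif4ebp1 at 124.84 and 103.80 RPKM and Trp53 at 39.46 and 42.65 RPKM. None of these 3 lists had a gene past 2-fold.

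Other large complexes were also slightly lower. The mitochondrial ribosomal proteins had a median of -0.19 over 76 genes, 56 below 0, with Mrpl11 at 42.68 and 37.18 RPKM and Mrpl52 at 41.64 and 32.02 RPKM. The proteasome subunits had a median of -0.16 over 40 genes, 28 below 0, with Psmb1 at 87.81 and 68.67 RPKM and Psmb4 at 84.13 and 67.89 RPKM. Neither list had a gene past 2-fold. A median under that of all rows was thus shared with these complexes, and the difference between the lists was not tested.

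**Figure D5:**
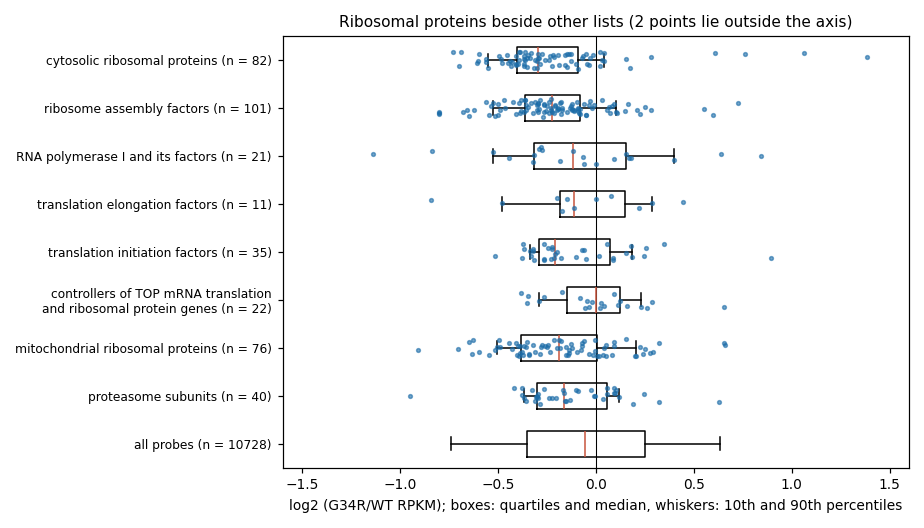
Log2 (G34R/WT RPKM) of the ribosomal protein genes, of 7 other lists and of all rows, with 1 point per gene except for all rows, boxes for quartiles and median and whiskers for the 10th and 90th percentiles (2 points lie outside the axis). The box of the ribosomal proteins is the lowest and lies wholly below 0, with assembly factors next.

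Among ribosomal proteins that the naming rule leaves out, the direction was mixed. Fau, the source of the small-subunit protein eS30, had 282.34 RPKM in WT and 261.68 RPKM in G34R cells (-0.11), and Gnb2l1, which encodes the ribosome-bound scaffold Rack1, had 213.85 and 184.67 RPKM (-0.21). Rpl13, a large-subunit protein, was higher, with 90.73 and 114.59 RPKM (0.34). It lies on chromosome 8, whose 595 tested rows had a median of 0.36 against -0.05 for all rows, and whether the chromosome as a whole accounts for its ratio was not tested.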

How the data were processed

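The RNA-seq data hold 1 library from each of the WT and G34R ES cell lines. Stranded single-end reads of 50 bp from total RNA had been aligned to mm9 with STAR 2.4.2a by the authors. The deposited values are RPKM per gene, which the authors made in Seqmonk from primary alignments with isoforms merged and a correction for transcript length. Raw counts were not used here, so the depth was estimated from the RPKM steps that 1 read makes in single-exon genes under 800 bp, and reads per gene are estimates.

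Ratios were log2 (G34R/WT RPKM) with values under 0.01 set to 0.01. Genes needed at least 1 RPKM in 1 or both libraries to be counted. With 1 library per line, folds of 2 and 1.5 were used and no test was run. For each member the mRNA with the longest coding sequence (GENCODE M1 models) was used. Each of its 50-base windows was looked up on both strands of the mm9 genome. Rows whose exons hold windows on the same strand were recorded. RefSeq promoters run from 250 bases before to 50 bases after the start.

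The members and lists were chosen with earlier results of these data known. Members named are those past 2-fold, the 5 highest of each subunit in WT, the 5 next largest and smallest ratios at 10 RPKM or more, stalk genes, Rpsa, Rps27a, Rps6 and paralogue pairs with parents. Of other lists the 2 highest in WT and those past 2-fold are named, with numbered pseudogene rows of named members at 10 RPKM or more. Some genes that this rule takes are not reported here. Scripts were tested on simulated data. Alternatives were added RPKM of 0.1 or 1, filters of none or 5 RPKM, other scalings, leaving out paralogues, and adding pseudogene rows. Calculations used pandas 2.3.3, NumPy 2.4.6 and SciPy 1.17.1 under Python 3.11.15, with figures from matplotlib 3.10.9 and the window search in numba 0.67.0. ChIP-seq and other data were not used here.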

Additional observations from a re-analysis of the deposited data

How the results depend on the processing

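No paired analysis was possible because each cell line had 1 library, and for the same reason no library could be left out. Of 95 alternative values of the counts, medians and sums, 82 stayed within 1.5 times the main count or close to the main value, and 13 moved. The median of the TOP controllers, at -0.00066 on the log2 scale, came out above 0 with 1 RPKM added (0.0018), with G34R scaled to the WT sum (0.05) and with the median of all rows subtracted (0.05). Members more than 1.5-fold down were 7, and 4 when G34R was scaled to the WT sum or the median of all rows was subtracted. With the latter the median of assembly factors was -0.17. The sum in G34R cells was 86.7% of that in WT, and 89.5% after scaling, 87.0% without paralogues and other names, and 86.2% with pseudogene rows. Members more than 2-fold down were 1, but 2 with the RPKM of pseudogene rows added (Rps13 joined) and 0 without paralogues, which removes Rpl39l. The value of Rps13 with its pseudogene row is a sum of RPKM over rows of unlike length and not of reads. After the data were seen, the RPKM of copy rows was added to that of each member. This left 1 gene up more than 2-fold and 2 up more than 1.5-fold. The ratio of these sums was -0.65 for Rpl34, -0.44 for Rps3a, -0.41 for Rpl30 and -0.08 for Rpl22l1. Rows were added without regard to their length, so these are not ratios of pooled reads, which were not compared. The only row added to Rpl22l1 was that of Orc5, with 19.26 RPKM in WT and 13.64 RPKM in G34R cells. The sum for Rpl22l1 thus takes in the whole level of a gene of another name. Among members with under 20% shared windows, 0 were up at either fold and 1 was down 1.5-fold, of 16. Of 228 alternative ratios of 38 named members, 80 moved, mostly with the scaling, which also took Rplp1 from -0.04 to 0.00 or 0.01. Rpl34 was the 1 gene past 2-fold whose direction turned, and only in the sum of RPKM with copy rows.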
